A study of Oryctolagus cuniculus with 134 samples.

Results

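Genes by which blood cells control actin, and genes of the phagocyte oxidase, were followed by symbol through the RNA of 5 rabbit tissues. They are the 8 genes NCKAP1L, VAV1, RAC2, CORO1A and DOCK2 on the actin side and CYBB, CYBA and NCF4 on the oxidase side. NCKAP1L, VAV1, RAC2, CORO1A, CYBB and NCF4, 6 of the 8, were found among the 29587 genes of the count tables, of which 14716 carry a symbol. DOCK2 and CYBA were not analysed here. The genes were chosen by measured values, their levels across the tissues and treatments of these same libraries. Their own differences between groups are therefore given as a description. Where the text says how many of them passed the threshold set for all genes (were called), this places them among all genes and is no test of them. Related genes were tested, in lists that were also drawn up with earlier results of these data known.

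The libraries were made from the 4 heart valves (aortic, mitral, pulmonary, tricuspid) and the proximal aorta of 27 male New Zealand White rabbits, which were 12 weeks old when the 16-week protocol began. Ctrl rabbits ate chow. CHT rabbits ate a diet with 0.3% cholesterol and drank vitamin D2 at 25000 U a day per 2.5 Kg for 15 days. Lard rabbits ate a diet with 5% lard and had the same vitamin D2. IR/CHT rabbits had the CHT diet and vitamin D2 and, after 8 weeks, X-ray irradiation of the heart with 24 Gy in 3 fractions of 8 Gy, 48 h apart, aimed at the aortic valve and thoracic aorta. Ctrl rabbits had no vitamin D2, so that diet and vitamin D2 cannot be told apart here, and groups with irradiation alone or vitamin D2 alone were not analysed here. Each tissue had 7 Ctrl, 6 CHT, 7 Lard and 7 IR/CHT libraries, 1 per rabbit, except for 6 Ctrl libraries in the mitral valve. Totals ran from 13564979 to 50577676 read pairs, with a median of 18235577.

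White blood cells crawl, engulf and form contacts by building branched actin behind the small GTPase Rac. VAV1 and DOCK2 load Rac with GTP, RAC2 is the Rac of blood cells, NCKAP1L is the blood-cell subunit of the WAVE complex that passes the signal to the Arp2/3 complex, and CORO1A is a coronin that binds actin filaments. The phagocyte oxidase makes superoxide from NADPH. CYBB is its catalytic membrane subunit, CYBA is the membrane partner of CYBB, and NCF4 belongs to the cytosolic part that joins the membrane subunits together with RAC2 when the cell is activated. RAC2 thus stands in both systems. In artery walls and valves these genes are best known from macrophages and other blood cells that enter the tissue.

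Before the comparisons, each library was set against the mean profile of each tissue over 2000 other genes, leaving its own rabbit out. Of the libraries, 121 were nearest to the tissue on their label and 13 to another one. The library labelled tricuspid valve Ctrl L168 had a correlation of -0.383 with the tricuspid valve and of 0.652 with the aortic valve. The library labelled pulmonary valve IR/CHT L275 had -0.0139 with its own tissue and 0.644 with the aortic valve, and the library labelled tricuspid valve IR/CHT L197 had 0.053 with its own tissue and 0.543 with the mitral valve. The libraries labelled pulmonary valve Lard L271 and tricuspid valve Lard L272 were each nearest to the other's tissue, at 0.885 and 0.888. The libraries labelled mitral valve Ctrl L183 and L241 were nearest to the tricuspid valve. All 13 were kept in the levels below, chow levels included, and some fold changes without them are given for each valve.

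On chow the 6 genes did not keep one order of tissues. Levels are in CPM, read pairs scaled to the size of each library, on 1 scale across all libraries, and they are compared only within a gene because transcript lengths were not used here. NCKAP1L had its lowest median in the aorta, at 7.14 CPM (2.72 to 10.3), and no aorta library reached the lowest library of the next tissue, the pulmonary valve, at 19.6 CPM (13.2 to 21.7). The share of all genes with such a gap was not computed. All aorta libraries were on plate 2 and chow valve libraries on both plates, and the part of plate in differences between aorta and valves was not tested. The 4 valves followed each other with overlapping ranges up to the mitral valve, at 25.7 CPM (14.6 to 38.1). VAV1 went from 3.49 CPM in the aorta to 12.6 CPM in the mitral valve, and every neighbour in that order overlapped.

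CYBB was highest on chow in the 2 valves of the right heart, at 15.9 CPM in the pulmonary valve (13.0 to 19.2) and 15.5 CPM in the tricuspid valve (8.51 to 18.1). L168 set the lower end of the tricuspid range, where the next library had 11.9 CPM. CYBB stood at 8.62 CPM in the aortic valve, 9.75 CPM in the mitral valve and 2.35 CPM in the aorta. RAC2 had the other order, with 1.11 CPM in the aortic valve and 1.56 CPM in the mitral valve against 0.407 CPM in the pulmonary valve and 0.189 CPM in the tricuspid valve. CORO1A was likewise higher in the mitral valve (4.73 CPM) and the aortic valve (3.76 CPM) than in the pulmonary valve (0.916 CPM), and NCF4 went from 0.692 CPM in the aorta to 4.62 CPM in the aortic valve. Neighbouring tissues in these orders overlapped for all 4 genes. RAC2 was close to the limit of detection on chow, with a median of 8 read pairs in the aorta and 3 in the tricuspid valve, and 1 library of each had none. L168 set the upper end of the tricuspid range for RAC2 and NCF4, at 4.89 and 6.96 CPM, with the next at 0.461 and 1.89 CPM.

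**Figure D1:**
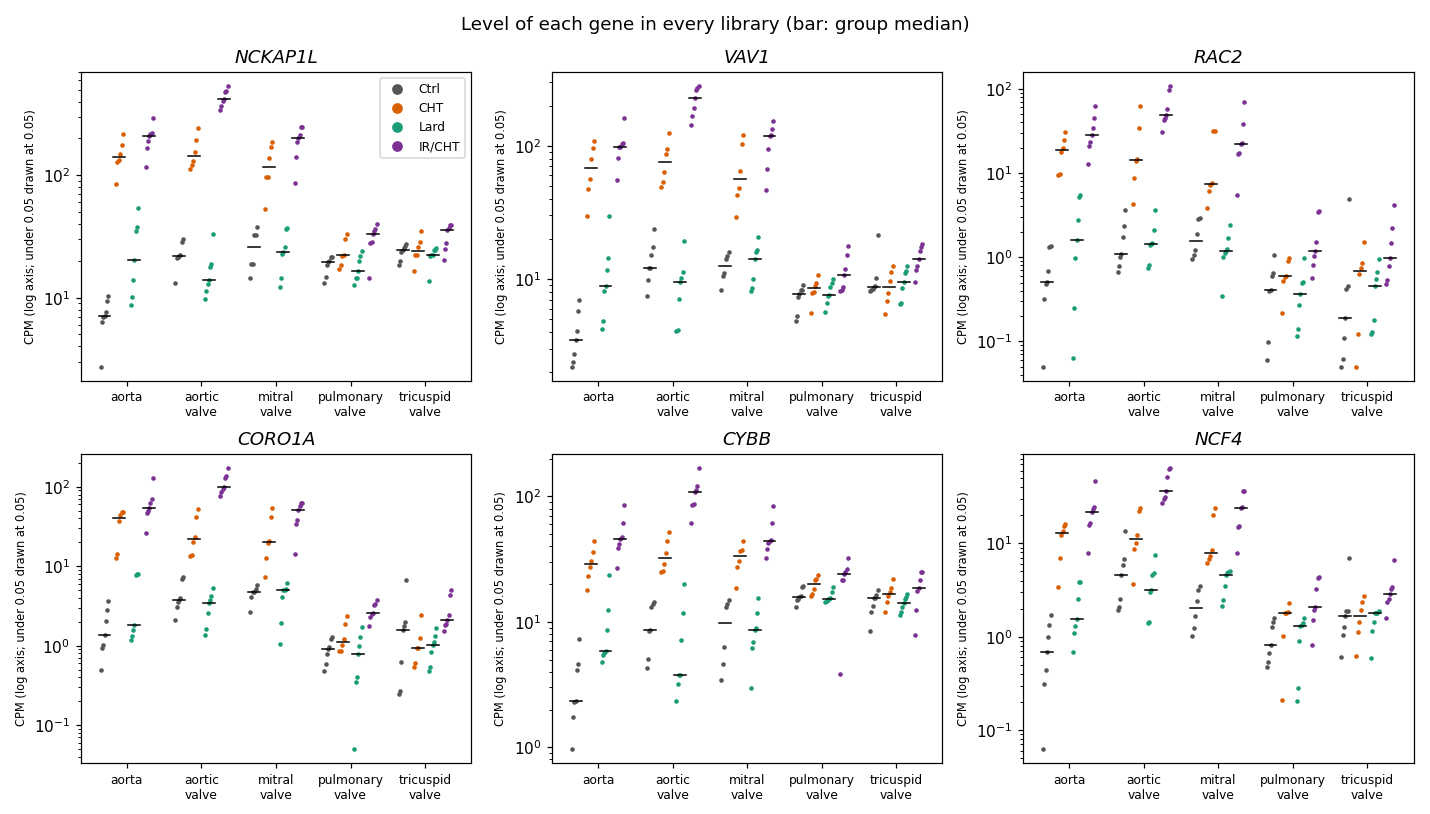
Level of 6 blood-cell actin and oxidase genes in each library, in CPM on a log axis, by tissue (x axis) and treatment (colour), with a bar at the group median. RAC2, for one, goes from 0.508 CPM in Ctrl aortas to 18.7 CPM in CHT, and values under 0.05 are drawn at 0.05.

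On the cholesterol diet the aorta held the largest differences of the 6 genes. RAC2 was at 18.7 CPM in CHT (9.44 to 30.3) against 0.508 CPM in Ctrl (0 to 1.37). NCKAP1L was at 141 CPM (84.3 to 216) against 7.14 CPM, and VAV1 at 68.4 CPM (29.6 to 108) against 3.49 CPM (2.19 to 6.97). For each of the 6 genes all 6 CHT aortas lay above all 7 Ctrl aortas, as they did for 7.76% of all genes tested.

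CORO1A stood at 40.8 CPM in CHT aortas (12.6 to 48.9) and 1.37 CPM in Ctrl (0.501 to 3.67). On the oxidase side CYBB stood at 29.0 CPM (17.9 to 44.1) against 2.35 CPM (0.969 to 7.27), and NCF4 at 13.0 CPM (3.39 to 16.1) against 0.692 CPM (0.0626 to 1.70). The log2 fold changes were 4.82 ± 0.67 (SE) for RAC2, 4.39 ± 0.39 for NCKAP1L, 4.30 ± 0.55 for CORO1A, 4.17 ± 0.42 for VAV1, 3.85 ± 0.52 for NCF4 and 3.18 ± 0.42 for CYBB. All 6 passed the call used here, an adjusted p under 0.05 and a fold change over 1.5 in edgeR, higher in CHT, as did 14.2% of the 14777 genes tested in the aorta. Since these values chose the genes, nothing is read from that count.

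In the aortic valve on CHT, NCKAP1L stood at 144 CPM (113 to 241.6) against 21.9 CPM in Ctrl (13.2 to 29.9) and RAC2 at 14.2 CPM (4.29 to 62.8) against 1.11 CPM (0.670 to 3.60). The groups were apart in this direction for 4.71% of all genes. NCF4 was the gene of the 6 whose groups overlapped, at 11.3 CPM (3.67 to 24.0) against 4.62 CPM (1.95 to 13.6), with 2 of 6 CHT libraries above all Ctrl libraries. Its log2 fold change of 1.35 ± 0.46 was the smallest of the 6, and RAC2 had the largest, 3.85 ± 0.54. The other 4 lay between 1.86 ± 0.40 for CYBB and 2.82 ± 0.25 for NCKAP1L. All 6 were called, beside 8.42% of 15408 genes called higher. NCF4 was called in 12 of 35 settings, most of which leave out 1 library, with values from 1.09 to 1.78, and not with plate as a covariate or in plate 1 alone. Without CHT library L151, the one at 62.8 CPM, the log2 fold change of RAC2 was 3.23. Without the libraries nearest to another tissue RAC2 was at 3.95 and CYBB at 1.97.

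In the mitral valve RAC2 stood at 7.34 CPM (3.83 to 31.9) against 1.56 CPM in Ctrl (0.945 to 2.88), and CYBB at 33.8 CPM (18.6 to 43.9) against 9.75 CPM (3.44 to 14.8). For all 6 genes the groups did not overlap, beside 2.92% of all genes with every CHT library above every Ctrl library. Log2 fold changes ran from 1.81 ± 0.36 for CYBB to 3.04 ± 0.58 for RAC2, and all 6 were called, beside 4.98% of 15322 genes called higher. Without the libraries nearest to another tissue RAC2 was at 2.38 and the 6 genes ran from 2.10 to 2.38. The median over the 6 genes was 4.24 in the aorta, 2.58 in the aortic valve and 2.49 in the mitral valve, where the medians over all genes tested were -0.04, -0.02 and -0.02. Within plate 1, which held all CHT libraries of these valves, the medians were 2.62 and 2.60. Whether the 3 tissues differed in this response was not tested.

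With irradiation on top of the cholesterol diet the 6 genes were higher again in the aortic valve. NCKAP1L reached 423 CPM (342 to 538), VAV1 227 CPM (142 to 282), CYBB 108 CPM (61.4 to 168.1), CORO1A 99.3 CPM (76.2 to 171.9) and NCF4 36.7 CPM (27.3 to 63.9). For these 5 genes all 7 IR/CHT aortic valves lay above all 6 CHT aortic valves, as for 5% of all genes. RAC2 stood at 49.2 CPM (30.9 to 108), and because 1 CHT library reached 62.8 CPM only 2 of 7 IR/CHT libraries lay above all of CHT.

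The log2 fold changes of IR/CHT against CHT in the aortic valve ran from 1.47 ± 0.49 for RAC2 to 2.09 ± 0.36 for CORO1A, and all 6 were called, beside 9.9% of genes called higher. RAC2 was called in 24 of 35 settings, with values from 1.23 without CHT library L228 to 2.07 without L151. It was not called with plate as a covariate, in plate 1 alone (1.36) or without the libraries nearest to another tissue (1.25). The median over the 6 genes was 1.60 with all libraries, 1.69 in plate 1 alone and 1.48 without the libraries nearest to another tissue. In the aorta the same difference ran from 0.49 ± 0.34 for NCKAP1L to 1.03 ± 0.46 for NCF4, and in the mitral valve from 0.61 ± 0.33 for CYBB to 0.90 ± 0.38 for NCF4. None of the 6 genes was called in either tissue by edgeR or DESeq2, beside 0.162% of genes called higher in the aorta and 0.0522% in the mitral valve. Whether irradiation acted differently in the 3 tissues was not tested.

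Against Ctrl, the IR/CHT libraries of these 3 tissues did not overlap for any of the 6 genes, beside 11.2% of all genes lying wholly above Ctrl in the aorta, 12.2% in the aortic valve and 5.73% in the mitral valve. The log2 fold changes ran from 3.95 ± 0.42 for CYBB to 5.67 ± 0.68 for RAC2 in the aorta, from 3.08 ± 0.47 for NCF4 to 5.32 ± 0.56 for RAC2 in the aortic valve, and from 2.42 ± 0.36 for CYBB to 3.92 ± 0.59 for RAC2 in the mitral valve. Without the libraries nearest to another tissue mitral RAC2 was at 2.94, and CORO1A was the largest there, at 3.24. All 6 were called in each, beside 22.2%, 21.1% and 11.1% of genes called higher. One IR/CHT aorta, L566, was the highest for CORO1A at 128.8 CPM, with the next at 69.9 CPM. Among the IR/CHT aortas the same library had the highest sums of leukocyte (262.6 CPM, median 197.1 CPM), macrophage (1307 CPM, median 750 CPM), T cell, B cell, neutrophil and heart muscle markers (2598 CPM, median 148 CPM) and the lowest of smooth muscle markers (10549 CPM, median 29055 CPM). The part of these cells in the value was not tested.

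In Lard aortas NCKAP1L stood at 20.2 CPM (8.71 to 54.3) against 7.14 CPM in Ctrl and VAV1 at 8.90 CPM (4.23 to 29.6) against 3.49 CPM, each with 5 of 7 Lard libraries above all Ctrl libraries. CYBB stood at 5.87 CPM (4.79 to 23.7) against 2.35 CPM. These 3 were called, with log2 fold changes of 1.85 ± 0.35, 1.58 ± 0.39 and 1.51 ± 0.39, beside 2.57% of genes called higher, while RAC2 (1.82 ± 0.64), NCF4 (1.43 ± 0.51) and CORO1A (1.27 ± 0.52) were not. Without Lard library L578, the highest of its group for CYBB and VAV1, NCKAP1L alone of the 6 was called, at 1.56. With only the 2 groups in the model, 0 of the 6 and 0 of all 13265 genes were called, with 2012 at an unadjusted p under 0.05. In the aortic, mitral, pulmonary and tricuspid valves 0 of the 6 were called on lard by edgeR or DESeq2, beside 0.026% of genes called higher in the aortic valve and 0% in the other valves.

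**Figure D2:**
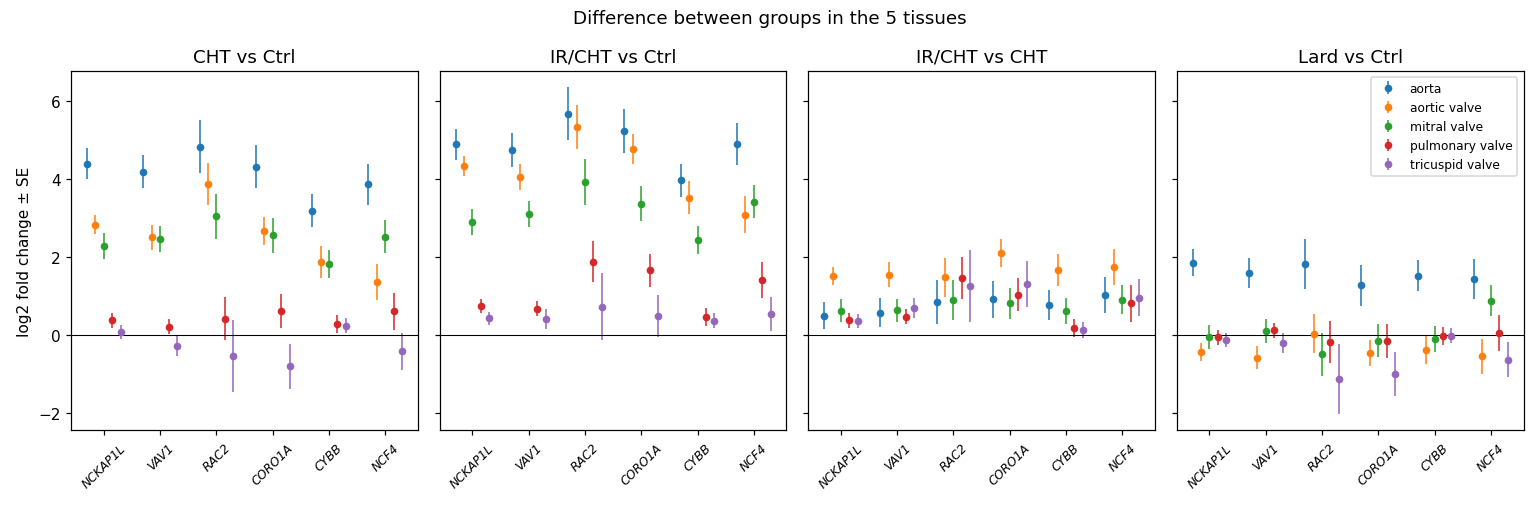
Log2 fold change with its SE for 6 genes (x axis) in 4 comparisons (panels) and 5 tissues (colours), as a description of genes chosen by these values. On CHT the 6 genes lie between 3.18 and 4.82 in the aorta and between 0.21 and 0.62 in the pulmonary valve.

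In the pulmonary valve on CHT the log2 fold changes ran from 0.21 ± 0.20 for VAV1 to 0.62 ± 0.44 for CORO1A, and 0 of 6 were called, beside 0.0484% of genes called higher. In IR/CHT against Ctrl, CORO1A stood at 2.59 CPM (1.77 to 3.72) against 0.916 CPM (0.474 to 1.29), and it was the gene of the 6 whose groups did not overlap, beside 0.436% of all genes. The log2 fold changes ran from 0.45 ± 0.23 for CYBB to 1.87 ± 0.52 for RAC2, with a median of 1.07, and 0 of 6 were called by edgeR, beside 0.581% of genes called higher. DESeq2 called 4 of 6, and 298 of all 14450 genes in either direction. CYBB was at 3.85 CPM in the library labelled IR/CHT L275 and between 21.6 and 32.4 CPM in the other 6. Without the libraries nearest to another tissue, CYBB and NCKAP1L were called, at 0.63 and 0.85, and so were 131 of all 14339 genes in either direction. Against CHT, 0 of 6 were called, beside 0.0761%.

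In the tricuspid valve the Ctrl library L168 stood apart for 4 of the genes. RAC2 was at 4.89 CPM in L168 and at most 0.461 CPM in the other 6 Ctrl libraries, and CORO1A, NCF4 and VAV1 were also highest in it, at 6.67, 6.96 and 21.5 CPM. CYBB was lowest in it, at 8.51 CPM, and NCKAP1L was highest but near the next library, at 27.4 and 26.3 CPM. With all libraries the median log2 fold change of the 6 genes was -0.35 on CHT, -0.42 on lard and 0.46 in IR/CHT against Ctrl, and 0.82 in IR/CHT against CHT. None of the 6 was called in any of the 4 by edgeR or DESeq2, beside 0.0816%, 0%, 0.109% and 0% of genes called higher. In IR/CHT against Ctrl 1198 of all 14700 genes had an unadjusted p under 0.05. Without L168 the medians against Ctrl were 0.16, 0.03 and 1.01, and RAC2 (2.92), NCF4 (1.29) and VAV1 (0.74) were called in IR/CHT against Ctrl. Without all libraries nearest to another tissue the last median was 0.81 and 0 of 6 were called.

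The partner genes were tested with adjusted p-values over all genes of each tissue, but their lists were drawn up with earlier results of these data known and are not independent evidence of a direction. The closest are the actin genes of blood cells, 23 found of 30 listed, such as LCP1, which bundles actin filaments, HCLS1, a cortactin relative, WAS, which activates Arp2/3, MYO1F, a class I myosin, and DOCK10, a DOCK family activator of small GTPases. On CHT, 18 of 22 tested were higher and 0 lower in the aorta, 15 of 23 in the aortic valve and 12 of 23 in the mitral valve, with medians of 2.59, 1.03 and 1.27 on the log2 scale. The shares of all genes called higher were 14.2%, 8.42% and 4.98%. LCP1 rose from 9.08 CPM (5.87 to 17.6) to 446 CPM (259.2 to 876) in the aorta, a log2 fold change of 5.85 ± 0.53 (edgeR adjusted p = 7.26e-09). HCLS1 rose in all 3 tissues, by 4.44 ± 0.38, 2.89 ± 0.25 and 2.48 ± 0.32. CYTIP, ELMO1 and DOCK8 did not pass in the aorta, at -0.06, 0.04 and 0.27.

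In IR/CHT against CHT, 14 of 23 of these genes were higher in the aortic valve and 0 lower, beside 9.9% and 9.85% of all genes. DOCK8, an activator of CDC42, rose by 0.93 ± 0.11 (edgeR adjusted p = 5.12e-06) and FYB1, an adaptor of blood cells, by 1.27 ± 0.18. In the aorta and mitral valve 0 were called by edgeR. Over all 5 partner lists that count was 0 of 55 in the aorta, with 17 at an unadjusted p under 0.05, and 0 of 56 in the mitral valve, with 15 at an unadjusted p under 0.05. Of all genes, 3370 of 14777 in the aorta and 2007 of 15322 in the mitral valve had an unadjusted p under 0.05. DESeq2 also called 0 in both. In the pulmonary valve 3 of 23 were higher in IR/CHT than in Ctrl, beside 0.581% of all genes: MYO1F (1.28 ± 0.21), ARHGAP30 (0.86 ± 0.19), a GTPase-activating protein, and WAS (0.94 ± 0.23). In IR/CHT against Ctrl 19 of 22 were higher in the aorta, 21 of 23 in the aortic valve, 19 of 23 in the mitral valve and 0 of 23 in the tricuspid valve, where the shares of all genes called higher were 22.2%, 21.1%, 11.1% and 0.109%. On lard 8 of 22 were higher in the aorta, beside 2.57% of all genes, led by LCP1 (3.42 ± 0.47) and DOCK10 (1.29 ± 0.20). With only the 2 groups in the model, 0 partner genes were called on lard. In the tricuspid valve 0 of 56 partner genes were called in IR/CHT against Ctrl by edgeR, with 7 at an unadjusted p under 0.05 and 1 called by DESeq2, and without Ctrl library L168 edgeR called 11. With all libraries edgeR called 34 of all genes there and DESeq2 94.

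The actin machinery that most cells share had smaller values. Of 16 tested, 3 were higher and 1 lower on CHT in the aorta and 4 were higher in the aortic valve, with list medians of 0.20 and 0.27, beside 14.2% and 8.42% of all genes called higher. In the mitral valve 0 of 16 were called by edgeR, with 6 at an unadjusted p under 0.05. The Arp2/3 subunits ARPC3 and ARPC2 rose by 1.03 ± 0.12 and 0.71 ± 0.11 in the aorta and by 1.09 ± 0.17 and 1.03 ± 0.14 in the aortic valve. CYFIP2, a WAVE complex subunit, fell by 0.88 on the log2 scale in the aorta, where 5.18% of genes were called lower. In IR/CHT against CHT in the aortic valve 4 were higher and 2 lower, and the WAVE proteins WASF3 and WASF1 fell by 1.51 and 1.84, where 9.85% of genes were called lower.

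**Figure D3:**
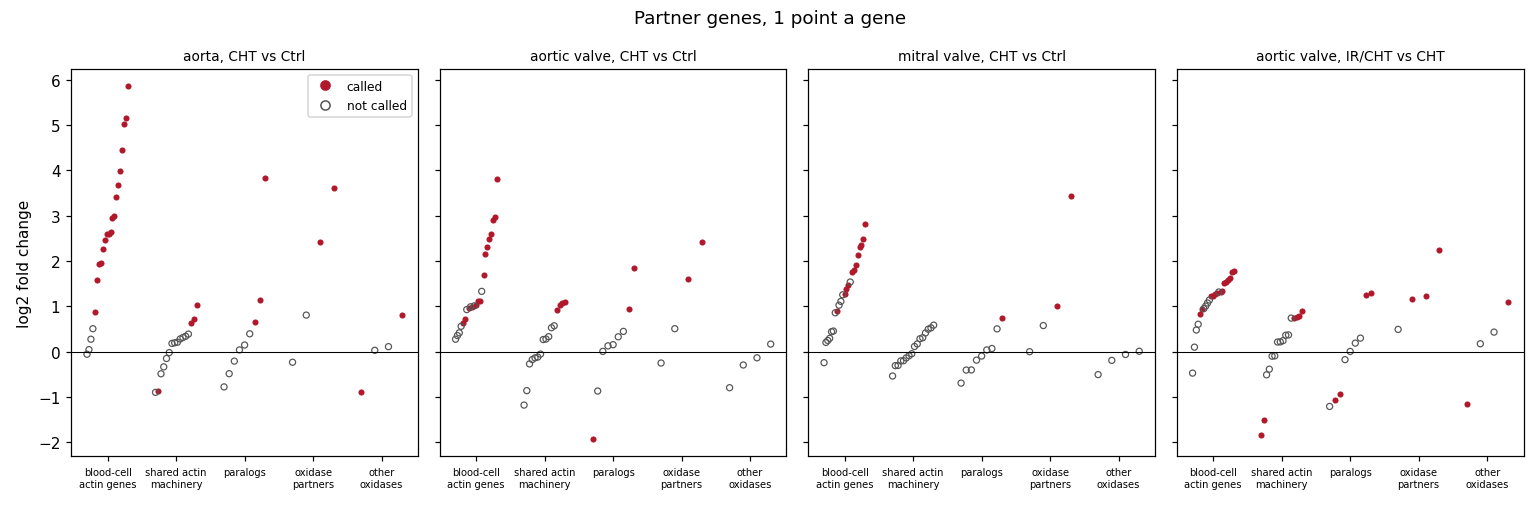
Log2 fold change of each partner gene (1 point a gene, filled where called) in 5 lists (x axis) for CHT against Ctrl in 3 tissues and IR/CHT against CHT in the aortic valve (panels). Blood-cell actin genes lie mostly above 0, up to 5.85 for LCP1 in the aorta, and the shared actin machinery and the paralogs lie on both sides of 0.

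The oxidase partners described here are CYBC1 and HVCN1. HVCN1, the proton channel that balances the charge the oxidase moves, rose on CHT by 2.41 ± 0.32 in the aorta, 1.60 ± 0.21 in the aortic valve and 0.998 ± 0.20 in the mitral valve. CYBC1, a chaperone of CYBB, did not pass on CHT (0.80, -0.25 and 0.57) but rose by 1.17 ± 0.41 in IR/CHT against CHT in the aortic valve, together with HVCN1 (1.23 ± 0.21). In the pulmonary valve edgeR called 4 partner genes of all lists in IR/CHT against Ctrl and DESeq2 called 8, and without IR/CHT library L176 edgeR called 1. With all libraries edgeR called 102 of all genes there and DESeq2 298.

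NOX4, an oxidase of vascular wall cells, was lower in CHT and IR/CHT aortas than in Ctrl. It stood at 116 CPM (84.3 to 120) in Ctrl aortas, 54.6 CPM (40.9 to 72.6) in CHT and 47.7 CPM (24.2 to 62.7) in IR/CHT. It fell by 0.89 on the log2 scale in CHT aortas (edgeR adjusted p = 0.000533), and in the aortic valve it fell by 1.15 in IR/CHT against CHT and by 1.45 against Ctrl. In the mitral valve it fell by 0.97 in IR/CHT against Ctrl. Of the 4 genes tested among other oxidases, SH3PXD2B, an organizer of NOX enzymes and invasive actin structures, rose by 0.80 ± 0.26 in CHT aortas, and DUOX1, a dual oxidase, rose by 1.09 ± 0.35 in IR/CHT against CHT in the aortic valve. The shares of genes called lower against Ctrl in IR/CHT were 12.2% in the aorta, 21.7% in the aortic valve and 6.65% in the mitral valve, and 3.48% were called lower on CHT in the aortic valve. CYBB per 100 read pairs of NOX4 in the same library thus went from a median of 2.79 in Ctrl aortas to 50.2 in CHT and 88.8 in IR/CHT, and from 13.0 to 58.0 and 276.9 in the aortic valve.

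Each actin gene has a relative outside blood cells, and 9 of 13 such genes were found. On CHT 3 of the 9 were higher in the aorta, 2 were higher and 1 lower in the aortic valve, and 1 was higher in the mitral valve. Of all genes 14.2%, 8.42% and 4.98% were higher in these tissues and 3.48% lower in the aortic valve, so that in a list of 9 a count of 1 is near those shares. RAC1, the general Rac, was not called in any of the 20 comparisons, with values of 0.14 in CHT aortas and 0.32 in CHT aortic valves. NCKAP1, the general WAVE subunit, was not called on CHT in any tissue and fell by 0.93 in IR/CHT against CHT in the aortic valve. CORO1C, a widely expressed coronin, was at -0.21, 0.44 and 0.07 on CHT in the 3 tissues, none called, and in IR/CHT against Ctrl it fell by 0.65 in the aorta and rose by 0.63 ± 0.14 in the aortic valve. RAC2 per 100 read pairs of RAC1 went from a median of 0.643 in Ctrl aortas to 20.6 in CHT and 32.2 in IR/CHT, and in the aortic valve from 1.39 to 15.9 and 57.6. In the aortic valve Ctrl (0.936 to 7.67) and CHT (4.09 to 65.2) overlapped in this ratio. NCKAP1L per 100 NCKAP1 went from 2.64 to 90.4 and 137 in the aorta and from 19.3 to 94.0 and 480 in the aortic valve.

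VAV3, a relative of VAV1 that many cell types express, was the paralog that rose in all 3 tissues on CHT, by 1.14 ± 0.19 in the aorta, 1.83 ± 0.27 in the aortic valve and 0.75 ± 0.22 in the mitral valve. It also rose by 1.24 ± 0.27 in IR/CHT against CHT in the aortic valve. DOCK5, a Rac activator, rose by 0.66 ± 0.17 and 0.94 ± 0.17 on CHT in the aorta and aortic valve, and DOCK1, another Rac activator, was not called in any of the 20 comparisons. CORO2A, another coronin, rose by 3.83 ± 0.41 in CHT aortas, from 0.187 CPM (0.121 to 0.317) to 2.91 CPM (1.73 to 5.26), and by 1.92 ± 0.41 on lard. CORO6, a coronin of muscle, fell by 1.93 on CHT in the aortic valve. VAV2, RAC3, CORO1B and NCF1 were not analysed here.

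**Figure D4:**
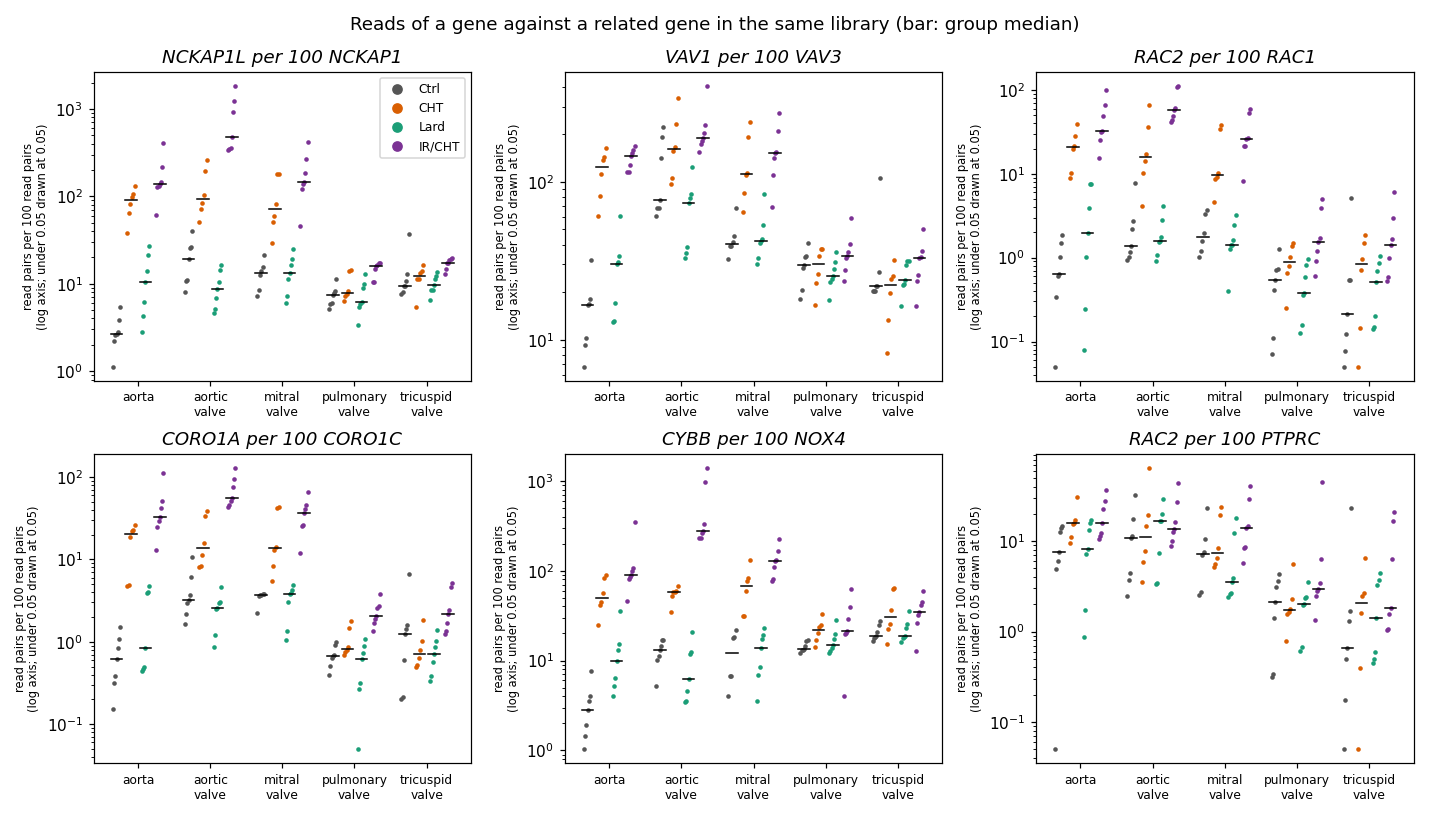
Read pairs of one gene per 100 read pairs of a related gene in the same library, on a log axis, by tissue (x axis) and treatment (colour), with a bar at the group median. NCKAP1L per 100 NCKAP1 goes from a median of 2.64 in Ctrl aortas to 90.4 in CHT, while RAC2 per 100 PTPRC has group medians of at most 2.99 in the pulmonary and tricuspid valves. Values under 0.05 are drawn at 0.05.

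Markers of blood cells moved with the 6 genes. PTPRC and CD53, the 2 general leukocyte markers found of 3, were both called higher wherever all 6 genes were, and their summed level went from 8.32 CPM (3.88 to 14.9) in Ctrl aortas to 119 CPM (66.4 to 202) in CHT, and from 17.6 CPM in Ctrl aortic valves to 153.4 CPM in CHT and 401 CPM in IR/CHT. Of 6 macrophage markers found of 7, CHT was higher for 4 in the aorta, 3 in the aortic valve and 4 in the mitral valve, with CD163 and MRC1 not called. The defining neutrophil marker CSF3R never passed 2.92 CPM in a library, MMP8 was at 0 in all Ctrl and all IR/CHT libraries, and 0 of the neutrophil markers tested were called on CHT in these 3 tissues. In IR/CHT against Ctrl 2 of 3 were higher in the aorta and 2 of 5 in the aortic valve, beside 22.2% and 21.1% of all genes. The shares of all genes called higher on CHT were 14.2% in the aorta, 8.42% in the aortic valve and 4.98% in the mitral valve. Of 4 T cell markers tested in the aortic valve, 1 was higher on CHT and 3 in IR/CHT against CHT, where 9.9% of all genes were. Of 6 B cell markers 5 were found, and their summed level went from 2.36 CPM (0.752 to 5.74) in Ctrl aortas to 45.7 CPM (23.3 to 62.4) in CHT and 44.2 CPM in IR/CHT. In the aortic valve it was 7.41, 33.8 and 73.5 CPM and in the mitral valve 2.76, 15.3 and 42.9 CPM in the same 3 groups, and 1 of 2 tested was higher on CHT in each of the 3 tissues. In bulk tissue, fewer or more cells of a type and less or more RNA per cell cannot be told apart, and the part of cell numbers in these results was not tested.

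Markers of other cells also moved with the groups. The summed level of 6 heart muscle markers, found of 9, was 758 CPM (155.7 to 11889) in Ctrl aortic valves, 47.8 CPM (6.25 to 335) in CHT and 38.7 CPM (6.82 to 200.1) in IR/CHT, and 5 of 6 were lower in CHT, beside 3.48% of all genes. In the aorta 3 smooth muscle markers summed to 98511 CPM in Ctrl, 52134 CPM in CHT and 29055 CPM in IR/CHT, with 2 of 3 lower on CHT, beside 5.18% of all genes. Endothelial markers were higher on CHT in the aorta for 4 of 5, beside 14.2% of all genes, and for 0 of 5 in the aortic valve, beside 8.42%. On CHT in the mitral valve 0 of 6 heart muscle markers were called. The 3 smooth muscle markers summed to 158.9 CPM (104 to 293.8) in Ctrl mitral valves, 602 CPM (320 to 1172) in CHT and 508 CPM (152.6 to 1157) in IR/CHT, with 2 of 3 higher on CHT, beside 4.98% of all genes. The sums of CHT and Ctrl did not overlap, beside 2.92% of all single genes with every CHT library above every Ctrl library. In Lard aortas the endothelial sum was 254 CPM (201.3 to 486) against 149 CPM (83.6 to 183.4) in Ctrl, with 1 of 5 called higher. These ranges did not overlap, and the share of all genes apart in this way was not computed. The macrophage sum there was 244.6 CPM (137.7 to 354) against 111 CPM (43.9 to 204), with 3 of 6 higher, the leukocyte sum 16.2 CPM (10.9 to 45.4) against 8.32 CPM, with 1 of 2 higher, and the smooth muscle sum 70085 CPM (50463 to 103353) against 98511 CPM, with 0 of 3 called. Of all genes 2.57% were called higher on lard in the aorta. The part of these cells in the differences was not tested.

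Per 100 read pairs of PTPRC, the genes separated. NCKAP1L had group medians from 89.0 to 133 in the aorta and the 2 valves of the left heart, and from 77.9 to 90.6 in the pulmonary and tricuspid valves. CYBB per 100 PTPRC was lower in the aortic valve on CHT (27.5, from 16.4 to 29.4) and IR/CHT (28.7, from 24.9 to 37.2) than on chow (55.8, from 42.1 to 66.4), and neither overlapped chow. How many other genes lie apart in this way was not counted. The CYBB ratio overlapped between CHT and Ctrl in the aorta, at 26.4 (22.1 to 29.8) against 35.6 (22.5 to 70.2), and in the mitral valve, at 28.1 (26.6 to 31.3) against 33.8 (27.7 to 39.7). In the pulmonary valve CYBB stood at 78.4 on chow and 59.5 in IR/CHT, and these groups overlapped. NCF4 per 100 PTPRC also had lower medians in the aortic valve, at 8.62 on CHT and 11.3 in IR/CHT against 25.1 on chow. VAV1 stood there at 59.0 and 55.7 against 73.2, and CORO1A at 17.6 and 30.1 against 29.7. The groups of these 3 genes overlapped chow. RAC2 per 100 PTPRC had medians of 3.49 to 16.9 in the former 3 tissues and of 0.659 to 2.99 in the pulmonary and tricuspid valves.

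Over all libraries, which share tissue, rabbit and depth, the 15 pairs of the 6 genes had Pearson correlations of log2 CPM from 0.61 to 0.98. The closest pair was NCKAP1L and VAV1 (0.98) and the farthest RAC2 and CYBB (0.61). Once the mean of each group was subtracted, NCKAP1L and VAV1 kept 0.80, while CYBB kept 0.70 with NCKAP1L, 0.51 with VAV1, 0.17 with CORO1A, 0.04 with NCF4 and 0.00 with RAC2. RAC2, CORO1A and NCF4 kept 0.67 to 0.70 with each other. These values include the 13 libraries nearest to another tissue and were not computed without them. Among them L168 was highest of its group for RAC2, CORO1A and NCF4 and lowest for CYBB. RAC2 and NCF4 are near neighbours in the RefSeq rabbit assembly mOryCun1.1, with 9 protein-coding genes between them. Any part of gene position in the correlations was not tested.

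The genes most like the mean of the 6 over all libraries, among 14710 with a symbol, were ARHGAP30 (r = 0.99), MYO1F (0.98), PTPN6 (0.98), ITGB2 (0.98), SYK (0.98), CD68 (0.98), ADAP2 (0.97), WDFY4 (0.97), UCP2 (0.97) and HCLS1 (0.97). PTPN6 is a phosphatase and SYK a kinase of immune receptor signaling, ITGB2 is the common subunit of leukocyte integrins, and CD68 is a lysosomal protein of macrophages. With the group means removed the 10 genes kept 0.73 to 0.88. Between tissues of the same rabbit, with treatment means removed, the mean level of the 6 genes had a correlation of 0.53 for the aortic and mitral valves over 26 rabbits, and the other 9 pairs of tissues had -0.29 to 0.33.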

How the data were processed

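The deposited values were whole counts of read pairs per gene, 1 column per library, in 1 table for each of 2 plates, which the authors made with the nf-core rnaseq pipeline from NovaSeq reads (bcl2fastq 2.20) of SMARTer stranded total RNA libraries on OryCun2.0 with Ensembl genes, without normalization or pooling. Plate 2 held every aorta library, and plate 1 every library of CHT in the aortic or mitral valve.

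Genes were found by symbol. The 6 genes and all lists were chosen with earlier results of these data known. Tests used edgeR 4.0.16 in R 4.3.3: in each tissue, filterByExpr, TMM and 1 robust quasi-likelihood model of the 4 treatments, with Benjamini-Hochberg adjustment over all genes, and a call at an adjusted p under 0.05 and a fold over 1.5. CPM were scaled by TMM over all libraries, and log2 CPM used a prior count of 2. The named partner genes are the members' relatives and, for each list, tissue and comparison, up to 3 called genes with the smallest p, and 10 genes named by likeness. CYTIP, ELMO1, CYFIP2 and WASF1 were named after their values were seen. The model was tested on simulated data. Replicate libraries differed by at least 15.6 times the counting variance, so none was counted as a copy. Rabbits are labelled as separate animals. Alternatives were DESeq2 1.42.0, other scalings, no filter, 2 groups only, plate, single libraries left out and, added after the data were seen, the libraries nearest to another tissue left out. Overlapping genes and strand were not examined. The values of 1 partner gene are not reported here.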

Additional observations from a re-analysis of the deposited data

Results flagged for a closer look

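Of 120 combinations of gene, tissue and treatment, 13 had a library apart from the rest of its group by Dixon's criterion. About 6 would be expected if values were normal and the combinations independent. CPM were not log-transformed here and the combinations share libraries, so nothing is read from 13 against 6. Values are in CPM. The library labelled tricuspid valve Ctrl L168 was highest for RAC2 (4.89, next 0.461), VAV1 (21.5, next 10.2), CORO1A (6.67, next 1.99) and NCF4 (6.96, next 1.89). Its profile over other genes was nearer to the aortic valve than to its labelled tissue, as was that of some other libraries.

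The library labelled pulmonary valve IR/CHT L275, also nearest to the aortic valve, was lowest for CYBB (3.85, next 21.6). The library labelled tricuspid valve IR/CHT L197, nearest to the mitral valve, was highest for NCF4 (6.70, next 3.45). The library labelled tricuspid valve Lard L272, nearest to the pulmonary valve, was lowest for NCKAP1L (13.6, next 22.1), and aortic valve Lard L232, also nearest to the pulmonary valve, was highest for NCKAP1L (33.2, next 18.7).

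In the aorta, Lard L578 was highest for CYBB (23.7, next 12.5) and VAV1 (29.6, next 14.4), and IR/CHT L566 was highest for CORO1A (128.8, next 69.9). Aortic valve Ctrl L150 was highest for NCF4 (13.6, next 6.82), and tricuspid valve CHT L172 was highest for CORO1A (2.46, next 1.26). The reason for these values was not tested.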

How the results depend on the processing

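For the 6 genes the median log2 fold change kept its direction for CHT and IR/CHT in the aorta and in the aortic and mitral valves under every setting tried. In the tricuspid valve it was 0.28 on CHT in plate 1 alone and -1.23 in plate 2 alone, 0.17 and -1.22 on lard, and -0.14 in IR/CHT against Ctrl in plate 2 alone. Leaving out 1 library at a time, the number of the 6 genes called ran from 1 to 4 on lard in the aorta and from 5 to 6 in the aortic valve on CHT and in IR/CHT against CHT. It ran from 0 to 2 in the pulmonary valve and from 0 to 3 in the tricuspid valve in IR/CHT against Ctrl.

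Among partner genes, 15 were called in the aortic valve on CHT in plate 1 alone, against 24 with all libraries, and 18 in the mitral valve in IR/CHT against Ctrl in plate 2 alone, against 32. Of all genes 826 were called in the former, against 1833, and 1115 in the latter, against 2715. With only the 2 groups compared, 0 partner genes were called on lard in the aorta, against 9, and 1 in the pulmonary valve in IR/CHT against Ctrl, against 4. Of all genes 0 were called in the former, against 386, and 62 in the latter, against 102. In the latter comparison plate 2 alone gave 0 partner genes, DESeq2 gave 8, and leaving out 1 library gave 1 to 5. Plate 2 alone and DESeq2 called 2 and 298 of all genes there. DESeq2 also called 1 on CHT and 7 in IR/CHT against CHT in the pulmonary valve, where leaving out 1 library gave 0 to 1, and 1 in IR/CHT against Ctrl in the tricuspid valve. In that tricuspid comparison plate 1 alone gave 7, leaving out 1 library gave 0 to 11 (11 without L168), and leaving out the libraries nearest to another tissue, a setting chosen after seeing the data, gave 5. The cause was not tested. No paired analysis was possible because the treatment groups compared share no replicate numbers, each rabbit having had 1 treatment. Tissues on chow come from the same rabbits, and their order is a description with no test, paired or not. Intervals of low counts were not computed, and RAC2 on chow, with a median of 3 to 28 read pairs, is limited by depth.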
